A study of Mus musculus with 4 samples.

Results

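The cells described here were luminal duct cells of the mouse submandibular gland (SMG) and sublingual gland (SLG). They had little of 3 granular duct kallikreins and of the marker pairs of 3 other kinds of duct cell. They were chosen from the deposited single-cell matrix as barcodes with at least 3 UMIs (unique molecular identifiers, each marking 1 captured RNA molecule) of Krt7, Krt19, Cldn4 and Elf5 together. In addition, Klk1b9, Klk1b11 and Klk1b26 together had to be under 50 per 10000 UMIs, each of the pairs Ascl3 and Foxi1, Slc13a2 and Slc9a3, and Krt5 and Krt14 could have at most 1 UMI, Smgc had to be under 500 per 10000 UMIs, Mucl2 and the 3 Dcpp genes each under 30% of UMIs, and Ptprc at 0. The rule did not limit other genes of these kinds of duct cell. Klk1, for example, reached 100 or more per 10000 UMIs in 156 of the chosen barcodes. Of the 15707 barcodes, 432 met the rule, a share of 2.75% (exact binomial 95% interval 2.50 to 3.02). They were 27.5% (25.3 to 29.8) of the 1570 luminal duct barcodes, meaning those that met every limit on luminal, acinar and leukocyte genes. The 1138 other luminal duct barcodes went past 1 or more of the duct limits: 282 past the kallikrein limit only, 527 past that on Ascl3 and Foxi1 only, 52 past that on Slc13a2 and Slc9a3 only, 81 past that on Krt5 and Krt14 only, and 196 past several.

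The series has 4 samples in 1 group, both glands of untreated wild-type female C57BL/6N mice aged 6 to 8 weeks, dissociated with collagenases, hyaluronidase, dispase and pancreatin. The labels name 2 mice, whereas the study's methods give another number. All barcodes stand in 1 matrix with the same suffix, none listed more than once, and nothing ties a cell to its sample, animal or gland. The cells thus count as 1 sample: no test between groups was possible, every comparison below is a description, and the intervals cover counting error only.

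Saliva made by the acini runs through intercalated ducts, then granular and striated ducts, and leaves through excretory ducts. Luminal duct cells line these tubes, are joined by tight junctions, and carry the simple keratins; basal cells with Krt5 and Krt14 lie below them. In the mouse SMG the granular ducts store kallikreins and growth factors, cells with Ascl3 and Foxi1 resemble the ionocytes of other epithelia, and the striated ducts take salt out of the saliva.

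The 432 cells held 1395481 UMIs, 1.12% of all UMIs in the matrix, with a median of 2735 UMIs (quartiles 2131 to 3824) and 1140 genes a cell. The median over the other luminal duct barcodes was 3961 UMIs and that over all barcodes 2608. The share of UMIs on mitochondrial genes had a median of 8.77% in the members, 10.4% in the other luminal duct barcodes and 2.54% over all barcodes, and it was above 20% in 52 members. Transcripts of the acini were present in every member. The serous acinar list of 9 genes, led by Mucl2, Pip and Prol1, gave 361 UMIs a cell in the members. It gave 344 in the other luminal duct barcodes and 326 in 654 lymphoid barcodes, a cell type that does not make saliva proteins. The lymphoid barcodes had at least 1 UMI of Ptprc, at least 2 of Nkg7 and under 3 luminal UMIs. They also met the limits on Mucl2, Dcpp and Smgc that the members met. Per 10000 UMIs the serous acinar list was at 1116 in the members, 745 in the other luminal cells and 1363 in the lymphoid barcodes. The members were also shallower than the other luminal cells, and the part of depth in this difference was not tested. Among the groups of members described later, the list gave 272 UMIs a cell in group 1 and 480 in group 2. Their median depths were 2462 and 2359 UMIs.

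Among the 4 genes that defined the cells, Krt7, a type II keratin of simple epithelia, was found in 91.4% of members (88.4 to 93.9). Cldn4, a claudin of tight junctions, was found in 75.9% (71.6 to 79.9), and Elf5, an ETS-family transcription factor of secretory epithelia, in 32.4% (28.0 to 37.1). Krt19, a type I keratin of ducts, was found in 6.02% (3.97 to 8.69). With each cell thinned to 1000 UMIs, the shares were 61.1% for Krt7, 46.3% for Cldn4, 11.1% for Elf5 and 2.08% for Krt19, whereas in the thinned lymphoid barcodes they were 1.07%, 0.306%, 0.459% and 0. The direction of this gap was fixed by the choice of cells. Members needed at least 3 UMIs of these 4 genes, and the lymphoid barcodes were held to fewer. Krt7 and Cldn4 thus carried the selection: 291 members had both, 104 had Krt7 without Cldn4, 37 had Cldn4 without Krt7, and none had neither. Only 6 members had all 4 genes, the median was 4 luminal UMIs a cell, and the highest 31. Krt7 lies on chromosome 15 at 101411043-101430313, Cldn4 on chromosome 5 at 134945119-134946934, Elf5 on chromosome 2 at 103411688-103450989 and Krt19 on chromosome 11 at 100140810-100148665 (GRCm38).

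The limits of the rule differed in how many cells lay beside them. Among barcodes that met every other limit, 185 had 2 luminal UMIs, just outside, and 131 had 3, just inside, so that the set had no gap at its lower edge. Krt8 was at 11.3 UMIs per 10000 in the former and 13.1 in the latter, and Krt18 at 22.1 and 26.4. For Ascl3 and Foxi1, 308 members had none and 124 had 1 UMI, while 112 barcodes with 2 and 100 with 3 stood outside. For Slc13a2 and Slc9a3, 389 members had none and 43 had 1, and 25 barcodes with 2 stood outside. For Krt5 and Krt14, in contrast, 420 members had none and 12 had 1, with 4 barcodes at 2, 5 at 3 and 72 above 3, so that few cells stood near that limit. On the kallikrein limit, 25 members lay between 40 and 50 per 10000 and 22 barcodes between 50 and 60.

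**Figure D1:**
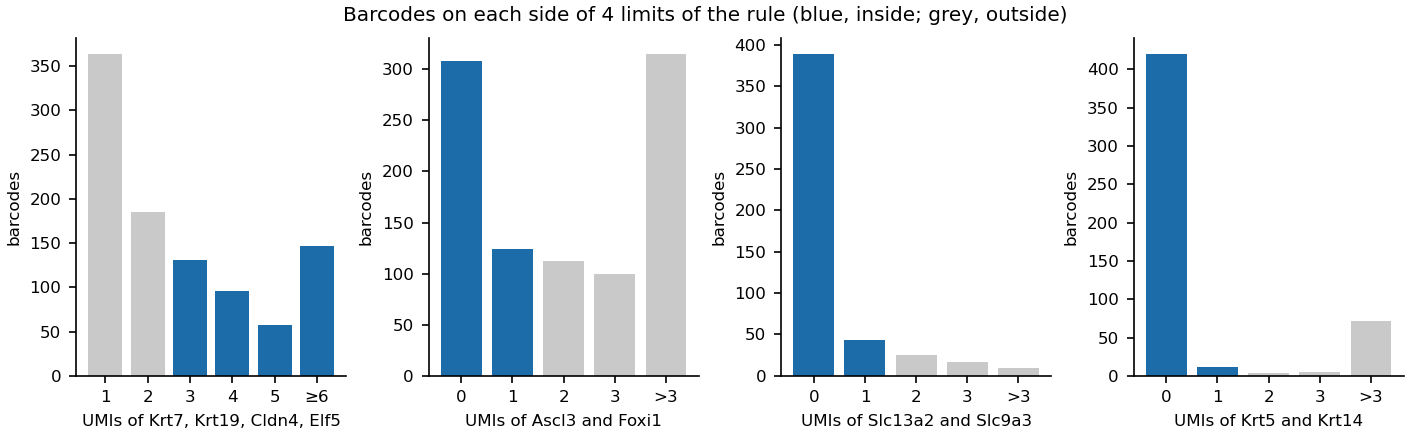
Number of barcodes (y axis) by UMIs (x axis) of the 4 luminal markers, of Ascl3 and Foxi1, of Slc13a2 and Slc9a3, and of Krt5 and Krt14, for barcodes that met every other limit; blue bars lie inside the rule and grey bars outside. The bars for Ascl3 and Foxi1 go from 124 at 1 UMI to 112 at 2, whereas those for Krt5 and Krt14 go from 12 to 4 and up again to 72 above 3.

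The label as epithelium was checked with 10 genes of simple epithelia that the rule had not used. They do not tell luminal from basal cells, since their sum was at 63.4 UMIs per 10000 in the Krt5 and Krt14 cells. At least 2 UMIs of this list were found in 430 of the 432 members, and its summed level was 81.7 UMIs per 10000, compared with 60.6 in the other luminal duct barcodes and 3.80 in the lymphoid barcodes. Krt18, the type I partner of Krt8, was at 35.6 in the members and found in 97.9% of them, and Krt8 was at 19.2 and found in 81.7%. Epcam, an epithelial adhesion molecule, was at 10.2, Cldn3 at 4.07 and Cldn7 at 4.05, both claudins. The members thus carried an epithelial set of transcripts almost without exception. Of the 4 basal duct markers outside the rule, Krt15, Krt17, Trp63 and Ngfr, 9 members had 2 or more UMIs, and their summed level was 0.351. Of the tuft and neuroendocrine list of 7 genes, 5 were at 0 in the members, among them Trpm5, Pou2f3 and Gnat3 of tuft cells and Chga of neuroendocrine cells. Dclk1, a kinase of that list, was found in 11.8% of members at 0.480, compared with 0.314 in the other luminal cells and 1.90 in the Slc13a2 and Slc9a3 cells, and 11 of the 14 members with 2 or more UMIs of the list were in the group rich in Wfdc18 (group 2, described later).

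The members were first set against the 1138 other luminal duct barcodes. Of 9845 genes with 30 or more UMIs over both sets, 106 or 1.08% were at least 2-fold higher and 314 or 3.19% at least 2-fold lower, and the median log2 ratio over all of them was -0.07. The lower genes included 13 of the 14 kallikreins, the growth factor gene Egf, and the basal duct markers (6 of 6), a direction that the rule set by leaving out cells with such genes. Klk1b22 was at 0.452 UMIs per 10000 in the members and 6.87 in the other luminal cells (log2 ratio -3.93, exact 95% interval -4.31 to -3.57), and Egf at 0.502 and 3.34 (-2.73, -3.10 to -2.39). The kallikrein genes stand side by side on chromosome 7 and are near-identical copies, so that the count of each member of the family is uncertain. Klk1, tissue kallikrein, which the rule did not use, was also lower (log2 ratio -1.061, -1.075 to -1.046). It was at 322 UMIs per 10000 in the members, 671 in the other luminal cells and 57.7 in the lymphoid barcodes.

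Among genes with at least 100 UMIs in the members and a UMI in at least 10% of them, the highest ratio to the other luminal duct cells was that of Wfdc18, which encodes a small secreted protein with a whey acidic protein domain. Its level was 102 UMIs per 10000 in the members and 35.4 in the other luminal cells (log2 ratio 1.52, 1.49 to 1.55), and 6.87 in the lymphoid barcodes. Wfdc12, of the same protein family, was at 9.97 and 4.01 (1.31, 1.21 to 1.41), but it was at 5.74 in the lymphoid barcodes too. Pglyrp1, a peptidoglycan recognition protein that binds bacteria, was at 0.896 and 0.405 (1.14, 0.81 to 1.47), with 1.88 in the lymphoid barcodes. Of these 3 genes, Wfdc18 was far lower in the lymphoid barcodes than in the members, Wfdc12 was less than 2-fold lower, and Pglyrp1 was higher. Ctsh, a lysosomal protease, was at 1.30 and 0.605 (1.10, 0.83 to 1.37), and Sprr1a, a cornified envelope precursor that is induced in injured epithelia, at 1.31 and 0.624 (1.07, 0.80 to 1.34). Esp4 and Esp18, of the exocrine gland-secreted peptide family, were at 2.46 and 1.23 (1.01, 0.82 to 1.20) and at 2.77 and 1.50 (0.89, 0.71 to 1.07). Within the members Esp4 was at 8.97 in group 2 and 0.370 in the rest. Of Klf2, Bpifa2 and Tmem176a, the remaining genes named in this direction, Klf2 had the largest ratio (1.21, 0.86 to 1.55), with 11.6% of members positive. Klf2 was at 2.09 in group 5, described later, and 0.682 in the other members. Without barcodes that had 2 or more UMIs of fibroblast, endothelial, myeloid or lymphoid markers, these levels were 0.201 and 0.538. Tmem176a, like Ctsh and Esp4, was among the 20 genes of the Slc13a2 and Slc9a3 cells described later.

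Against all other barcodes the ratios were shifted as a whole: 80.7% of 13340 genes were at least 2-fold higher and 8.45% at least 2-fold lower in the members, and the median log2 ratio was 1.92. The acinar cells, most of whose UMIs fall on a few secretory genes, are among those barcodes. The 15 genes with the highest ratios on this scale were Sprr1a, Esp18, Clu, Thbs1, Ly6d, Slc2a1, Cyp2f2, Edn1, Esp4, Krt8, Cxcl17, Cbr2, Tnfrsf12a, Krt18 and Slc16a11. Of these, Sprr1a and Esp4 were also at least 2-fold above the other luminal duct cells, and the other 13 were less than 2-fold apart between both luminal sets. Cyp2f2, a cytochrome P450 of airway secretory cells, was at 15.7 in the members, 11.3 in the other luminal cells and 0.716 in lymphoid barcodes. Clu, a secreted chaperone, was at 2.38, 1.44 and 0.0576, and Cxcl17, a mucosal chemokine, at 5.24, 4.14 and 0.224.

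The members were also set against each kind of luminal duct cell in turn. Compared with the kallikrein-rich cells, 7.03% of 6927 genes were at least 2-fold higher and 2.84% lower, and compared with the Ascl3 and Foxi1 cells, 3.00% of 8172 were higher and 3.93% lower. Against the Slc13a2 and Slc9a3 cells 7.68% of 5922 genes were higher and 9.52% lower, and against the Krt5 and Krt14 cells 8.90% of 6295 were higher and 8.15% lower. Wfdc18, at 102 in the members, was at 266 in the Slc13a2 and Slc9a3 cells, 62.6 in the Krt5 and Krt14 cells, 6.07 in the kallikrein-rich cells and 4.71 in the Ascl3 and Foxi1 cells. Klk1, at 322 in the members, was at 1674 in the kallikrein-rich cells, 291 in the Ascl3 and Foxi1 cells, 40.3 in the Krt5 and Krt14 cells and 21.5 in the Slc13a2 and Slc9a3 cells. Slc12a2, the sodium, potassium and chloride cotransporter NKCC1, was at 12.8 in the members against 30.6 in the Ascl3 and Foxi1 cells and 4.49 in the kallikrein-rich cells. For each of these 3 genes the members had neither the highest nor the lowest level of the 5 sets. Other genes were highest in the members, such as the demilune gene Dcpp1, at 30.3 against 9.54 to 13.7 in the 4 other sets, and Cldn10, at 0.681 against 0.139 to 0.448, both of which were also found in the lymphoid barcodes, at 32.9 and 0.390.

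**Figure D2:**
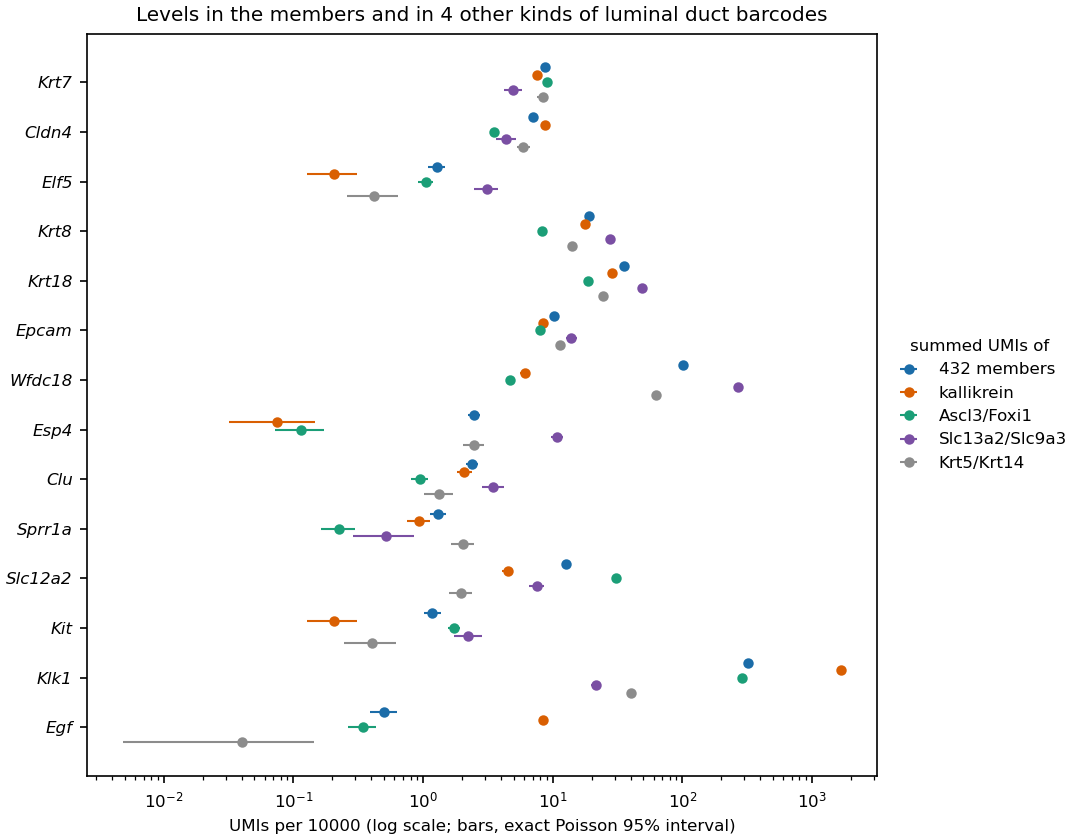
Levels of 14 genes (y axis) in UMIs per 10000 (x axis, log scale) for the summed UMIs of the 432 members and of 4 other kinds of luminal duct barcodes; bars are exact Poisson 95% intervals, and a level of 0 is not drawn. Wfdc18, Klk1 and Slc12a2 each spread over a wide range between the 4 other sets, with the members inside that range.

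The pooled level of Wfdc18 hid a split between cells. Over the 432 members Wfdc18 ranged from 0 to 1420 UMIs per 10000 with a median of 4.47; 148 members had none, and 107 had 100 or more. Klk1 ranged from 0 to 2709 with a median of 33.9, and 156 members had 100 or more. To describe this variation, the members were clustered with the genes of the rule and the abundant secretory genes left out, so that neither the kallikreins, Ascl3, Foxi1, Slc13a2, Slc9a3 nor Klk1 took part. This gave 5 groups of 138, 111, 76, 74 and 33 cells, which are numbered here and given by their leading genes. A cluster is made from the genes that then lead it, so these genes are a description.

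Group 1, 138 cells or 31.9% of the members, was led by Vwf, Hspb7, Slc9a4, Cpxm2 and Foxi2. Foxi2, a forkhead factor of the same family as Foxi1, was at 2.14 UMIs per 10000 in this group and 0.215 in the other members. Slc4a11, a membrane transporter of the bicarbonate family, was at 6.67 and 0.702. Slc12a2 had a median of 28.3 in group 1 and was found in all but 2 of its cells, whereas its median was 4.75 in group 2 and 0 in groups 3 and 4. Of the 10 leading genes of group 1, Slc9a4 and Slc4a11 encode membrane transporters, and most of the others do not. Genes of the ion transport list with 50 or more UMIs also had unequal levels in groups 1 and 2. Bsnd, a chloride channel subunit, was at 1.95 in group 1 and 0 in group 2, Fxyd2, a sodium pump regulator, at 136 and 3.59, and Atp6v0d2, a proton pump subunit, at 4.27 and 0.0588. Although Ascl3 and Foxi1 had been kept out of the clustering, 84 of the 138 cells had the single UMI of these genes that the rule allowed, against 0 of 111 cells in group 2.

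Group 2, 111 cells or 25.7%, was led by Gjb2, Hp, Esp4, Ano1 and Wfdc18. Gjb2, the gap junction protein connexin 26, was at 4.998 UMIs per 10000 in group 2 and 0.152 in the other members, Hp, haptoglobin, at 5.62 and 0.199, and Ano1, a calcium-gated chloride channel, at 2.03 and 0.0853. Wfdc18 was found in every cell of group 2, with a lowest value of 7.10, a median of 307 and a highest of 1420 per 10000. Of the 107 members with 100 or more, 90 were in this group, and the highest value in group 1 was 26.0. The values of groups 1 and 2 overlapped only at the low end of group 2. Krt8 had a median of 28.2 in group 2 and 3.49 in group 1, and Krt18 of 44.9 and 15.9, so that the level of simple keratins also differed within the members. Of the 43 members with 1 UMI of Slc13a2 or Slc9a3, 35 or 81.4% were in group 2, which held 25.7% of the members. The median mitochondrial share was 4.02% in group 2, 10.6% in group 1 and 18.5% in group 4.

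Group 3, 76 cells, had Mia, Ly6d, Sprr1a and Ly6a among its leading genes. Ly6d, a surface protein of stratified epithelia, was at 9.36 UMIs per 10000 in group 3 and 1.46 in the other members, and Sprr1a at 4.00 and 0.659. Ly6d was at 12.1 in the Krt5 and Krt14 cells. In single cells these genes were not shared by the whole group, since 34 of its 76 cells had no UMI of Ly6d. Wfdc18 reached 573 in group 3 and was 0 in 28 of its cells, and Klk1 ran from 0 to 1334, so that group 3 held both low and high cells of each gene. Markers of other cell types were also higher here: 9 cells had 2 or more UMIs of the 6 endothelial genes and 12 of the 6 fibroblast genes. Their part in the group was not tested, but in the 55 cells left without barcodes that had 2 or more UMIs of fibroblast, endothelial, myeloid or lymphoid markers, Ly6d was at 8.61 against 1.22 and Sprr1a at 4.45 against 0.604, while Mia was at 0.782 against 0.181.

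Group 4, 74 cells, was led by Klk1, Rcan1, Cracr2a, Egf and Scgb1c1. Klk1 had a median of 844 UMIs per 10000, with quartiles of 519 and 1421, and 66 of the 74 cells had 100 or more, although Klk1 had been left out of the clustering. Rcan1, an inhibitor of calcineurin, was at 2.99 in group 4 and 0.566 in the other members, and Cracr2a, a regulator of calcium entry, at 1.32 and 0.256. Egf, epidermal growth factor, was at 1.36 and 0.301, far below the 8.42 of the kallikrein-rich cells. Klk1 as a whole was at 958 in group 4, between the 1674 of the kallikrein-rich cells and the 57.7 of the lymphoid barcodes. The mitochondrial share was above 20% in 31 of the 74 cells, and the myeloid list stood at 6.12 UMIs per 10000 against 1.53 over all members, with Cd74, the invariant chain of MHC class II, at 10.0. The Dcpp genes of demilune cells were at 312 per 10000 against 165 over all members. The part of these transcripts in the group was not tested.

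Group 5, 33 cells, was led by Col1a2, Mgp, Gsn, Dcn and Igfbp7, genes of fibroblasts and matrix. The fibroblast list was at 18.7 UMIs per 10000 against 2.76 over all members, and 8 of the 33 cells had 2 or more UMIs of it. Gsn was at 13.8 in the group and 0.906 in the other members. In the 24 cells of the group left without barcodes that had 2 or more UMIs of the markers of other cell types, Mgp was at 0, Gsn at 0.401 and Igfbp7 at 0.301, while Igfbp5, another of the 10 leading genes, was at 5.12. Col1a2 and Dcn are on the list by which those barcodes were left out, so that their fall was fixed by it. In group 5, Slc12a2 had a median of 21.0 and Slc4a11 of 2.75, below the 28.3 and 4.80 of group 1, and 19 of the 33 cells had 1 UMI of Ascl3 or Foxi1. Klk1 and Krt8, with medians of 226 and 13.6, were above the 35.5 and 3.49 of group 1. Together, groups 1 and 5 held 103 of the 124 members with such a UMI, or 83.1%, and 39.6% of all members. The cells of group 5 were also the deepest, with a median of 4337 UMIs against 2462 in group 1.

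**Figure D3:**
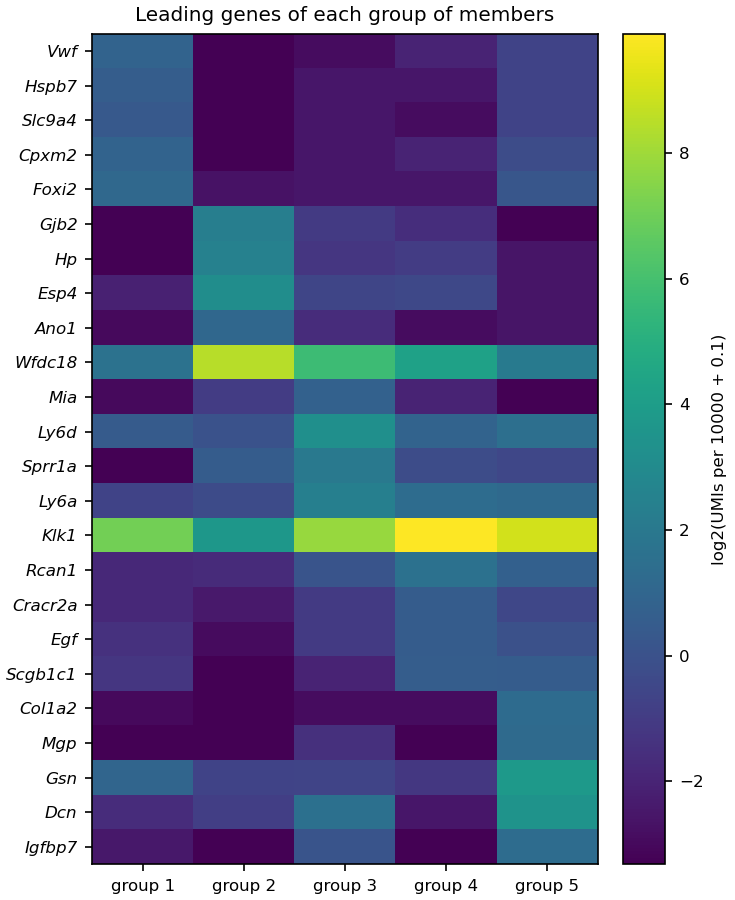
Levels of up to 5 leading genes of each group (rows) in the 5 groups of members (columns), coloured by log2 of UMIs per 10000 plus 0.1. Each block of rows is brightest in its own group, Wfdc18 is brightest in group 2 with some signal in group 3, and Klk1 is bright in all groups but least in group 2.

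**Figure D4:**
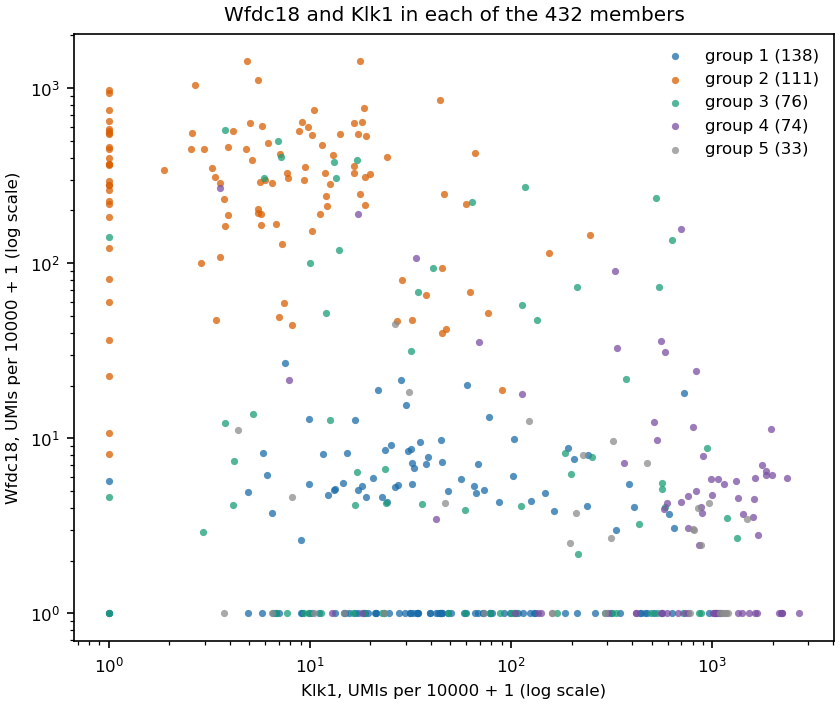
Wfdc18 (y axis) against Klk1 (x axis) in each of the 432 members, in UMIs per 10000 plus 1 on log scales, coloured by group. Cells of group 2 lie at high Wfdc18 and low Klk1, cells of group 4 mostly at high Klk1 and low Wfdc18, and cells of group 3 lie in between and across.

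To see whether the groups carried the transcripts of cells that stood outside the rule, 20 genes were taken for each other kind of luminal duct cell from its own barcodes, none of them members and no rule genes among them. This comparison was chosen after the groups had been seen. The Ascl3 and Foxi1 cells had a median of 3235 UMIs, compared with 2462 in group 1. The Slc13a2 and Slc9a3 cells had a median of 4982, compared with 2359 in group 2. The limit of 1 UMI for each pair was on raw counts, which a shallower cell meets more easily. The part of depth in the division was not tested. The 20 genes of the Ascl3 and Foxi1 cells, which include Kcnj8 and Kcnj3 for ion channels, had a median of 43.4 UMIs per 10000 in those cells and of 44.5 in group 1, compared with 27.7 in group 5 and 0 in groups 2, 3 and 4. The quartiles were 30.9 to 57.5 in the Ascl3 and Foxi1 cells and 33.5 to 56.3 in group 1 so that the latter lay within the former. The 20 genes of the Slc13a2 and Slc9a3 cells had a median of 360 in those cells and 364 in group 2, with quartiles of 232 to 439 and 234 to 574. In group 3 their median was 16.2 and in groups 1, 4 and 5 it was 4.24, 5.82 and 5.50. Wfdc18 is 1 of these 20 genes and made up 85.1% of their sum in group 2 and 77.6% in the Slc13a2 and Slc9a3 cells. With the other 19 genes alone, group 2 had a median of 59.5 (quartiles 39.1 to 83.2), below the 84.1 (65.7 to 104) of the Slc13a2 and Slc9a3 cells, and groups 1, 3, 4 and 5 had medians of 2.24, 9.21, 2.50 and 2.75. Of the 10 leading genes of group 1, 7 were among the 20 of the Ascl3 and Foxi1 cells, and of the 10 of group 2, 9 were among the 20 of the Slc13a2 and Slc9a3 cells. In groups 3, 4 and 5 at most 2 leading genes were among the 20 of any set. The overlap over all genes able to lead a group was not computed. Both kinds of list come from the same matrix, so these counts are a description.

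Groups 3 and 4 differed from groups 1 and 2 in this. The 20 genes of the kallikrein-rich cells, among them Muc13, Scgb1c1 and Crisp3, had a median of 101 (quartiles 55.8 to 156) in those cells, 27.8 in group 4 and 22.9 in group 3, with upper quartiles of 50.6 and 47.5 that lay below the lower quartile of the set itself. The 20 genes of the Krt5 and Krt14 cells had a median of 59.0 in those cells and of 0 in every group of members. In group 3 the upper quartile was 47.5 for the genes of the kallikrein-rich cells, 2.92 for those of the Ascl3 and Foxi1 cells, 70.7 for those of the Slc13a2 and Slc9a3 cells and 6.40 for those of the Krt5 and Krt14 cells. Each lay below the lower quartile of the cells the genes came from, which was 55.8, 30.9, 232 and 39.3. The genes were taken from those same barcodes, and the rule limited the markers of each kind in the members. A lower level in the members was thus favoured by the choice of genes and cells.

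**Figure D5:**
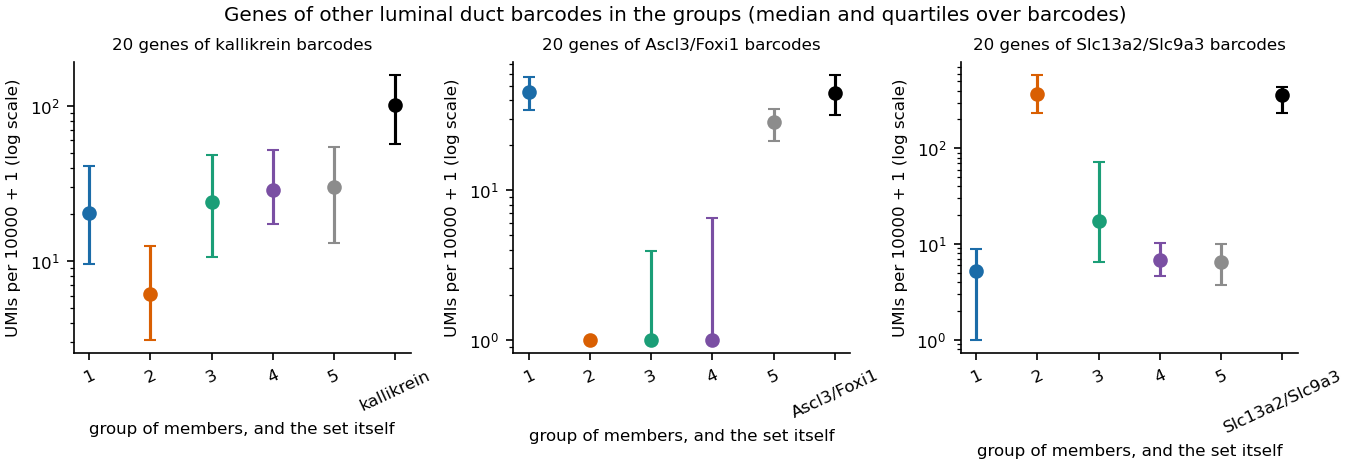
Summed level of 20 genes of the kallikrein-rich, the Ascl3 and Foxi1, and the Slc13a2 and Slc9a3 cells (y axes, UMIs per 10000 plus 1, log scale) in the 5 groups of members and in the set itself (x axis); points are medians over barcodes and bars quartiles. Group 1 lies at the level of the Ascl3 and Foxi1 cells. Group 2 lies at that of the Slc13a2 and Slc9a3 cells, with Wfdc18 making up 85.1% of the sum in group 2 and 77.6% in those cells. No group reaches the kallikrein-rich cells. Each set of genes was taken from the barcodes shown as the set itself, which favours a higher level there.

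For 1 leading gene of each of groups 1 to 4 the 250 bases before the RefSeq transcription start are shown, since these genes mark how the members divide. GENCODE M21 places some starts elsewhere. There Foxi2 starts at 135410308 and Sprr1a at 92485895, so that the last bases of their windows lie within the gene, and Wfdc18 starts at 83709015, past its window. The sequences are from RefSeq on GRCm38.p6, 5′ to 3′ on the strand of the gene: Wfdc18 at chr11:83708754-83709003 (plus strand, group 2), Klk1 at chr7:44225110-44225359 (plus, group 4), Sprr1a at chr3:92485882-92486131 (minus, group 3) and Foxi2 at chr7:135410117-135410366 (plus, group 1). Capitals mark the letters GGAAG or, on the other strand, CTTCC, the core bound by ETS factors such as Elf5, and TGTTTA or TAAACA, a forkhead core. The motifs cannot overlap each other.
Wfdc18: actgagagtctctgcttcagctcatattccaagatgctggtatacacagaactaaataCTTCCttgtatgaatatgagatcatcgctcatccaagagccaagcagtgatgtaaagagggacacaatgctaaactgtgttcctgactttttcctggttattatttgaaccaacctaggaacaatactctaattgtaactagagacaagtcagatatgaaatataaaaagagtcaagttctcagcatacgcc
Klk1: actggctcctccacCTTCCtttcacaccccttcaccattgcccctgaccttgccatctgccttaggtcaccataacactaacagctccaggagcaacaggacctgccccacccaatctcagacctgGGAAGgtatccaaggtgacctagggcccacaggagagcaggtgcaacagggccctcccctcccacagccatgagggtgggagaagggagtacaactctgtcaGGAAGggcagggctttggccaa
Sprr1a: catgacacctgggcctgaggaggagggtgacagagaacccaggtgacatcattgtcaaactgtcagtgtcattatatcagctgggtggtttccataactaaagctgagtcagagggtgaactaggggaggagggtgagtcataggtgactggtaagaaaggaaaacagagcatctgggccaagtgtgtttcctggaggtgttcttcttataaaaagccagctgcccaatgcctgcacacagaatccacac
Foxi2: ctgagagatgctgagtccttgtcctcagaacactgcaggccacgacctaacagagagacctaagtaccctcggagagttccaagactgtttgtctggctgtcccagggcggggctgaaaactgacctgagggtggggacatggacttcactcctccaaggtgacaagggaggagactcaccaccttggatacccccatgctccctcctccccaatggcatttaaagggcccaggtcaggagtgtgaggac

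Klk1 had the ETS core at 3 places, Wfdc18 at 1, and Sprr1a and Foxi2 at none, while 64.1% of the promoters in the table had it at least once in the same window. The forkhead core was in none of the 4 and in 3952 of the 32851 promoters. A match of such short letters is a description of the window and not a bound site. Elf5 itself was at 2.76 UMIs per 10000 in group 2, above its level in the members as a whole, where it took part in the selection.

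Genes of ion and fluid transport were described next, since they set the kinds of duct cell apart. Of 27 genes in the list, 23 were compared with the other luminal cells, and none passed 2-fold in either direction (background 1.08% and 3.19%). The median log2 ratio was -0.23 against -0.07 over all genes. Against the Slc13a2 and Slc9a3 cells, however, 8 of 18 were at least 2-fold higher and 4 lower (background 7.68% and 9.52%), and against the Ascl3 and Foxi1 cells 4 of 23 were higher and 6 lower (background 3.00% and 3.93%). Against the Krt5 and Krt14 cells 14 of 20 were higher and 0 lower (background 8.90% and 8.15%), and against the kallikrein-rich cells 7 of 23 were higher and 0 lower (background 7.03% and 2.84%). The sodium pump gene Atp1b1 was at 17.3 UMIs per 10000 in the members. Scnn1a and Scnn1b, subunits of the epithelial sodium channel, were at 1.07 and 1.39 in the members but at 0.0882 and 0.0294 in group 2, compared with 1.54 and 2.73 in group 1. Car2, a carbonic anhydrase, and Fxyd3, a sodium pump regulator, went the other way, at 4.82 and 12.7 in group 2 and at 0.0541 and 3.81 in group 1. The members as a whole thus joined groups with opposite levels of these genes.

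Markers of the intercalated duct, the segment next to the acini, were present at low level. Of the 6 genes, 2 were at least 2-fold higher than in the other luminal cells (background 1.08%) and none lower, with a median log2 ratio of 0.65. Aqp5, a water channel that acinar cells also make, was at 0.487 UMIs per 10000 and 0.242 in the other luminal cells (log2 ratio 1.01, 0.57 to 1.45), with 0.403 in lymphoid barcodes. Kit, a receptor of intercalated duct cells, was at 1.18 and 1.14, with 2.03 in group 1, 1.65 in group 2 and 0.293 in group 3, and Gstt1, a glutathione transferase, at 0.702 and 0.394. Sox9, a transcription factor of ducts, was at 4.60 and 4.44 and was found in 56.9% of members, with 7.53 in group 2. The 6 genes together were at 12.6 in group 2 and at 4.59 to 5.81 in the other 4 groups, and 77 of the 111 cells of group 2 had 2 or more UMIs of them. Their sum was higher still in the Slc13a2 and Slc9a3 cells, at 15.8. It was at 4.06 in the kallikrein-rich, 6.68 in the Ascl3 and Foxi1 and 4.20 in the Krt5 and Krt14 cells.

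Of 19 genes for tight junction and adhesion that were compared, 1 was at least 2-fold higher than in the other luminal cells and none lower (background 1.08% and 3.19%), and the median log2 ratio was -0.04. That gene was Cldn10, a claudin that acinar cells also have, at 0.681 and 0.196 UMIs per 10000 (log2 ratio 1.80, 1.38 to 2.21) with 0.390 in lymphoid barcodes. Cdh1, E-cadherin, was at 2.19 and 2.33, Dsp, desmoplakin, at 1.87 and 2.02, and Cldn8, a claudin of salt-absorbing ducts, at 1.28 and 1.32. Except for Cldn10, the junction genes named here thus had nearly equal levels in both sets of luminal cells.

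Of 20 genes of mucosal defence, 3 were at least 2-fold higher (Wfdc18, Pglyrp1 and Pigr) and 3 lower (Lcn2, Duox2 and Il33), with a background of 1.08% and 3.19% and a median log2 ratio of 0.20. Duox2, an oxidase of mucosal surfaces, was at 0.258 UMIs per 10000 in the members and 0.616 in the other luminal cells, and Lcn2 and Il33 rested on 10 and 4 UMIs in the members. Pigr, the receptor that carries IgA across epithelia, was at 0.452 UMIs per 10000 in the members and 0.186 in the other luminal cells (1.28, 0.80 to 1.75), and was found in 7.41% of members; it was at 0.186 in the lymphoid barcodes and at 1.02 in all other barcodes. Wfdc2, a protease inhibitor of ducts, was at 8.91 and 11.4, with 3.94 in group 2 and 9.86 to 11.2 in the other 4 groups. Wfdc2 and Wfdc18 thus ran in opposite directions between group 2 and the remaining members. Cxcl2, a neutrophil chemokine, was at 1.20 in the members, found in 6.25% of them, and at 5.18 in group 4, where the myeloid list was also higher, at 6.12 against 0.338 to 0.588 in the other groups; it was at 1.95 in the lymphoid barcodes.

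Transcripts of other cell types in the members were counted list by list. At least 2 UMIs were found for the fibroblast list in 24 members, for the myeloid list in 14, for mucous acinar genes in 13, for the endothelial list in 10, for myoepithelial genes in 9, for the lymphoid list in 8, and for pericyte and erythroid genes in 2 each. Cd3e, Ncr1 and Cd79a of lymphocytes were at 0. In all, 51 members had 2 or more UMIs of fibroblast, endothelial, myeloid or lymphoid markers. All 3 demilune genes, Dcpp1 to Dcpp3, were at least 2-fold higher than in the other luminal cells (background 1.08%). So were 3 of 3 endothelial, 3 of 4 fibroblast and 2 of 3 mucous acinar genes compared. None of 9 serous acinar, 7 myeloid, 5 myoepithelial and 2 lymphoid genes was. The demilune genes had a sum of 165 UMIs per 10000 in the members, 77.8 in the other luminal cells and 176 in the lymphoid barcodes. Per cell this was 53.3, 35.9 and 42.0 UMIs. The part of droplets that held more than 1 cell and of free RNA in these values was not tested.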

How the data were processed

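The authors deposited 1 matrix of raw UMI counts, not normalized, from 10x Genomics 3' libraries. Per the file headers it was made with Cell Ranger 6.0.1. The submitters' processing notes name mm10 and Seurat 4.1.1. All 15707 barcodes were kept. The members and the gene lists were chosen with earlier results of these data known.

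Levels are UMIs of a gene summed over a set per 10000 UMIs, with exact Poisson intervals at the 95% level. Ratios carry exact conditional intervals and shares Clopper-Pearson intervals. Genes with 30 or more UMIs over both sets were compared, and called at 2-fold. Groups came from Leiden clustering (1500 variable genes, 10 principal components, 15 neighbours, resolution 0.5) of log-normalized counts, without rule genes and abundant secretory genes. Leading genes had 30 or more UMIs in the group and a UMI in 20% of its cells. Scrublet called 0 barcodes doublets and was taken to have failed, so none were removed.

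The genes named were those of the rule, list genes with 50 or more UMIs in the members, the 15 highest ratios to all other barcodes, the 10 highest and 10 lowest to the other luminal duct cells (100 or more UMIs, 10% of cells), and 5 leading genes a group. Other genes named were chosen after their values were seen, and a few genes are not reported here. Positions are from GENCODE M21. RefSeq promoters were found for 32 of 49 leading genes. Python 3.11.15, numpy 2.4.6, scipy 1.17.1, pandas 2.3.3, scanpy 1.11.5, igraph 0.11.9 and matplotlib 3.10.9 were used, and the ratios were tested on simulated data. The alternatives changed the luminal, kallikrein and other duct limits, filters on barcodes and genes, the scale, free RNA, doublet scores and the resolution.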

Additional observations from a re-analysis of the deposited data

How the results depend on the processing

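The share of barcodes that met the rule, 2.75%, was 3.93% with 2 luminal UMIs and 1.31% with 5, 2.34% and 3.37% with kallikrein limits of 25 and 100 per 10000, and 1.64% with 0 UMIs of the other duct markers. An alternative chosen after seeing the data, without barcodes that had 2 or more UMIs of fibroblast, endothelial, myeloid or lymphoid markers, gave 3.84% of fewer barcodes. With 10 luminal UMIs per 10000, a filter of 200 genes and 20% mitochondrial UMIs, or without the 10% highest Scrublet scores, it stayed within its interval. The count of genes at least 2-fold higher than in the other luminal duct cells, 106, was 169 with means over cells, 23 among genes with 100 UMIs, and 1641 with all genes that had a UMI and 0.5 UMIs added. The count at least 2-fold lower, 314, was 742 with 0 UMIs of the other duct markers, and 72 and 1010 under the last 2 gene filters. The number of groups was 3 at resolution 0.3 and 8 at resolution 0.8. All 111 cells of group 2 stayed together at both, and all 138 of group 1 at 0.3, whereas at 0.8 88 of them did. At 0.3, 60 of the 76 cells of group 3 and 73 of the 74 of group 4 fell into 1 group, and 24 of the 33 of group 5 fell in with group 1. Smgc, a gene of the rule, was the only one of the genes past 2-fold whose log2 ratio changed sign, from -1.25 to 0.11 with 10 luminal UMIs per 10000. Of 634 ratios under the alternatives, 429 stayed within their counting interval. Of 34 named genes past 2-fold, 21 stayed past it with 5 luminal UMIs, the fewest of any alternative. No paired analysis was possible because the series has 1 group.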

Other observations

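Immediate early genes, which respond within minutes to stimuli and to tissue dissociation, were high in the members and in the other luminal duct cells alike. Atf3 was at 37.6 UMIs per 10000 in the members and 33.2 in the other luminal cells, Fos at 35.6 and 37.6, and Jun at 25.1 and 25.4, while the lymphoid barcodes had 2.33, 5.42 and 2.92. None of the 12 genes of this list and of heat shock passed 2-fold between the 2 luminal sets. Over all genes 1.08% were higher and 3.19% lower, so that this count says little about the list. Hspa1a, a heat shock protein, was at 7.66 in the members, 11.6 in group 2 and 16.3 in the Slc13a2 and Slc9a3 cells.

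Of 31 epithelial transcription factors compared with the other luminal cells, none was at least 2-fold higher and 1 was lower, beside 1.08% and 3.19% of all genes, with a median log2 ratio of -0.03. Tfcp2l1, a factor of ducts, was found in 84.0% of members at 9.58 UMIs per 10000. Foxc1 was at 4.26 in group 2 and 0.838 in group 1, Foxq1 at 3.23 and 0.243, and Elf3, an ETS factor, at 1.26 and 3.49. Among the hormone and growth factor receptors, none of 14 compared passed 2-fold, beside 1.08% of all genes higher and 3.19% lower.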
